A study of Mus musculus with 6 samples.

Results

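A fixed list of 36 genes of fatty acid synthesis, desaturation, activation, oxidation and binding was followed in Raw264.7 macrophages after knockdown of *Etv5*, which encodes a transcription factor of the ETS family. The members were found by gene symbol among the 24786 symbols of the expression table, and all 36 were present. They comprised 12 genes of synthesis, elongation and desaturation, 4 acyl-CoA synthetases of activation, 18 genes of mitochondrial oxidation and 2 genes of fatty acid binding proteins. Of these, 34 reached an RPKM (reads per kilobase of gene length, relative to all mapped reads of a library) of at least 1 in at least 3 libraries and were tested. *Acacb* stayed below this limit, and *Decr1* was listed at 0 in every library.

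Polyadenylated RNA was sequenced from 3 libraries of cells infected with a control lentivirus (sh-NC) and 3 libraries of cells infected with a lentivirus carrying a short hairpin RNA against *Etv5* (sh-*Etv5*). Raw264.7 is a mouse macrophage line derived from a tumour induced by Abelson murine leukemia virus. The labels give the strain as C57BL/6 and the age as post natal day 21 for both groups, and both were grown in the same medium and infected in the presence of a Lipofectamine reagent, with expression read 24 or 48 hours later. The study's text instead describes the sequenced cells as stably transfected, so whether the knockdown was recent or lasting is not settled by these sources. All 6 libraries come from this single line, and neither the hairpin used for sequencing nor separate infections for the replicates are named, so the p-values measure the spread between these libraries, which may be technical.

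Fatty acids are built in the cytosol from acetyl-CoA, which is carboxylated to malonyl-CoA and then condensed to palmitate by fatty acid synthase, and the product is lengthened and desaturated at the endoplasmic reticulum. For breakdown, a fatty acid is joined to coenzyme A, carried into mitochondria as its carnitine ester and shortened by repeated rounds of dehydrogenation, hydration, oxidation and thiolysis. Macrophages use these routes to make membrane lipids and the precursors of lipid mediators, and to handle the lipids they take up.

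*Etv5* itself had 9.18, 9.89 and 9.39 RPKM with sh-NC against 5.19, 4.91 and 5.28 RPKM with sh-*Etv5*, a mean fall by 46.0% (limma, log2 fold change -0.78, SE 0.0565, adjusted p = 2.74e-07). A share of 24.54% of its 50-base stretches also occurs in the annotated gene *Gm4798*, and the split of such reads is not known. RPKM values summed to 320462 to 322949 in the sh-NC libraries and to 330454 to 340257 in the sh-*Etv5* libraries, in which the 10 highest genes held 6.55% to 6.65% and 10.5% to 10.7% of the sum, respectively. All 8 macrophage markers examined passed the filter, of which 3 rose (*Itgam*, *Adgre1* and *Spi1*) and 4 fell (*Csf1r*, *Cd68*, *Lyz2* and *Mpeg1*). The summed level of the 8 markers was 3943 to 4045 RPKM with sh-NC and 2911 to 2987 RPKM with sh-*Etv5*. Most of this sum was *Lyz2*, with means of 2834 and 2041 RPKM, respectively. The part of this sum in the results was not tested. In bulk RNA, fewer cells of a type and less RNA per cell cannot be told apart. Over all 10738 genes tested, 8204 (76.4%) had no overlap between the groups.

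The fatty acid genes changed in both directions, and the decreases of at least 0.5 in log2 fold change comprised 6 genes of synthesis, elongation and desaturation, 3 of oxidation and *Acsl5* of activation, and the increases of that size *Fabp4*, *Fabp5* and *Acsl4*. A gene was called where limma, run on log2(RPKM + 1) across all 10738 genes, gave a Benjamini-Hochberg adjusted p below 0.05. Of the 34 members tested, 24 were called, that is 70.6%, against 74.3% of all genes tested. There were 8 members higher in sh-*Etv5* cells (23.5%, against 33.3% of all genes) and 16 lower (47.1%, against 41.0%). With an absolute log2 fold change of at least 0.5, 10 members were called lower (29.4%, against 15.0% of all genes) and 3 higher (8.82%, against 15.9%). No overlap between the groups was seen for 26 members, or 76.5%, near the 76.4% of all genes. The median log2 fold change was -0.11 for the members and -0.05 for all genes, and the median absolute value was 0.43 against 0.31. The share of members called in either direction was therefore near the background, and the counts past 0.5 lay above it for the decreases and below it for the increases. These counts are a description of a list chosen with earlier results known and were given no test of their own.

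**Figure D1:**
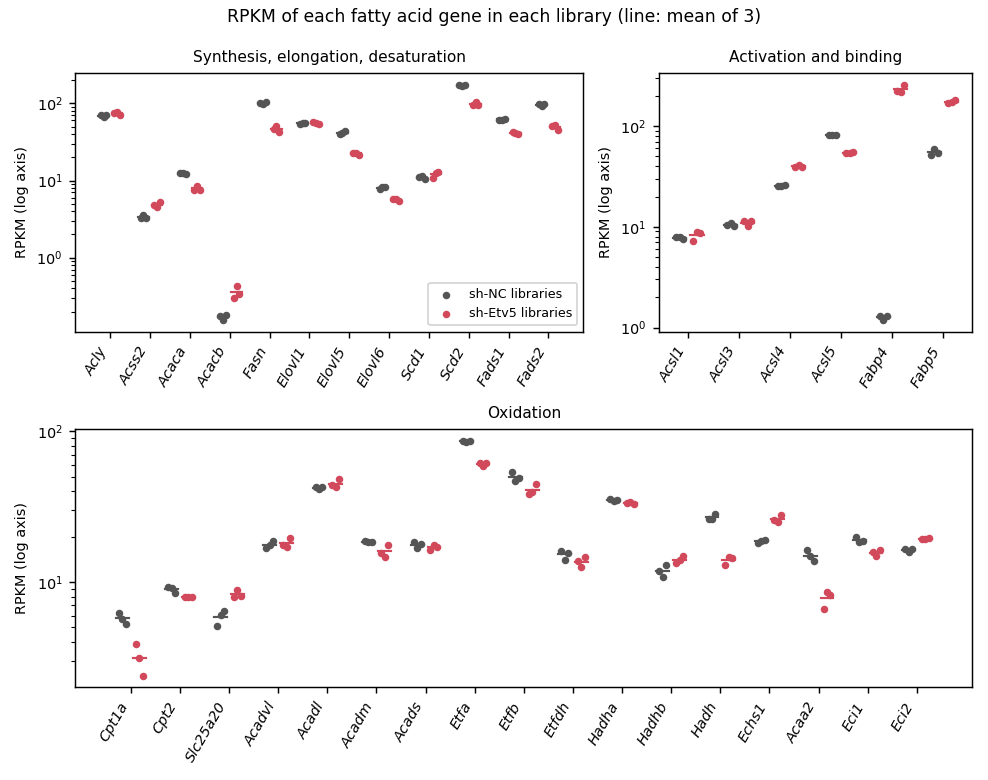
RPKM on a log axis for 35 of the 36 genes in each of the 3 sh-NC libraries (grey) and 3 sh-*Etv5* libraries (red), with a line at the mean of each group. *Decr1*, listed at 0 in all libraries, cannot be drawn on this axis. *Fabp4* separates the groups most, from 1.19 to 1.31 RPKM in sh-NC cells to 219 to 256 RPKM in sh-*Etv5* cells.

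The genes of synthesis, elongation and desaturation were mostly lower. Of the 11 tested, 7 fell (63.6%, against 41.0% of all genes), 1 rose (9.09%, against 33.3%) and 3 were not called, with a median log2 fold change of -0.57. The share called in either direction, 72.7%, was near the 74.3% of all genes. Their summed RPKM was 633, 618 and 639 with sh-NC and 423, 435 and 402 with sh-*Etv5*, that is 630.0 ± 10.9 and 419.7 ± 17.0 (SD, n = 3), a difference of -33.4%. In each sh-*Etv5* library this sum was below that of every sh-NC library.

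Among the genes of synthesis, *Fasn* fell most. It encodes fatty acid synthase, the enzyme that makes palmitate (ENSMUSG00000025153.9, chr11:120805846-120824547 on the minus strand of GRCm38). *Fasn* was measured at 102, 97.1 and 103 RPKM with sh-NC against 46.8, 50.2 and 42.3 RPKM with sh-*Etv5*. The sh-NC libraries were close together, and every sh-*Etv5* library lay far below them. The mean fell by 53.8%, from 101 ± 3.13 to 46.4 ± 3.96 RPKM (log2 fold change -1.10, SE 0.0555, adjusted p = 1.31e-08), and it ranked 227 by decrease among the 10738 genes tested.

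*Acaca*, which encodes the acetyl-CoA carboxylase that supplies malonyl-CoA for synthesis, had 12.5, 12.4 and 12.0 RPKM with sh-NC against 7.62, 8.49 and 7.62 RPKM with sh-*Etv5*. It fell by 35.6% (log2 fold change -0.58, SE 0.0551, adjusted p = 2.57e-06), without overlap. Among its 50-base stretches, 30.43% also occur in other annotated genes, such as *Gm5182*. *Acacb* encodes the carboxylase isoform of the mitochondrial surface, whose malonyl-CoA inhibits fatty acid entry. It was low throughout, at 0.175, 0.156 and 0.181 RPKM with sh-NC against 0.301, 0.433 and 0.341 RPKM with sh-*Etv5*, and was not tested.

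The enzymes that supply cytosolic acetyl-CoA did not follow *Fasn*. *Acss2*, which makes acetyl-CoA from acetate, had 3.28, 3.61 and 3.24 RPKM with sh-NC against 4.77, 4.47 and 5.33 RPKM with sh-*Etv5*. All sh-*Etv5* libraries were higher, and the mean rose by 43.8% (log2 fold change 0.42, SE 0.0738, adjusted p = 0.000357). *Acss2* overlaps exons of the antisense genes *Gss*, *Ggt7* and *Acss2os*, and no use of strand in the quantification is stated. *Acly*, which makes acetyl-CoA from citrate, had 70.7, 67.4 and 70.6 RPKM with sh-NC against 75.8, 76.4 and 70.3 RPKM with sh-*Etv5*. The groups overlapped, and *Acly* was not called (log2 fold change 0.09, 95% interval -0.00 to 0.18, adjusted p = 0.0669), although quantile normalization of the log2 values gave an adjusted p of 0.0476 and leaving out sh-*Etv5* replicate 3 gave 0.00757.

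Within each library, the ratio of *Fasn* to *Acly* was 1.44, 1.44 and 1.46 with sh-NC and 0.618, 0.657 and 0.601 with sh-*Etv5*. Such a ratio does not depend on how a library is scaled. *Fasn* was above *Acly* in all sh-NC libraries and below it in all sh-*Etv5* libraries.

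Of the elongases, which add carbon pairs to existing fatty acids, *Elovl5* and *Elovl6* fell. *Elovl5*, which acts on polyunsaturated fatty acids (chr9:77917364-77984519, plus strand), had 40.3, 41.7 and 43.3 RPKM with sh-NC against 22.8, 22.9 and 21.6 RPKM with sh-*Etv5*. It fell by 46.2%, from 41.7 ± 1.49 to 22.4 ± 0.744 RPKM (log2 fold change -0.87, SE 0.0429, adjusted p = 1.14e-08). The libraries within each group were close together and the groups far apart.

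*Elovl6*, which lengthens palmitate to stearate, had 7.84, 8.14 and 8.30 RPKM with sh-NC against 5.79, 5.80 and 5.40 RPKM with sh-*Etv5*, and fell by 30.0% (log2 fold change -0.45, adjusted p = 2.44e-05). *Elovl1*, which makes very long saturated and monounsaturated chains, had 54.3, 56.1 and 55.0 RPKM with sh-NC against 57.9, 56.2 and 54.2 RPKM with sh-*Etv5*. Its groups overlapped, and no difference was called (log2 fold change 0.02, 95% interval -0.06 to 0.11, adjusted p = 0.57).

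The desaturases, which insert double bonds into fatty acyl chains, had the largest percent decrease in summed RPKM among the roles, from 342, 331 and 344 in the sh-NC libraries to 201, 210.2 and 194 in the sh-*Etv5* libraries, a difference of -40.5%. Of the 4 genes, 3 fell (75.0%, against 41.0% of all genes), and the share called in either direction, also 75.0%, was near the 74.3% of all genes. *Scd2*, a stearoyl-CoA desaturase that makes monounsaturated fatty acids, was the most abundant of them, with 171, 167 and 173 RPKM in sh-NC cells and 96.2, 104 and 96.4 RPKM in sh-*Etv5* cells. It fell by 41.9% (log2 fold change -0.78, SE 0.0388, adjusted p = 1.22e-08). The paralog *Scd1* did not move with it.

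*Scd1* had 11.0, 11.3 and 10.5 RPKM with sh-NC against 10.9, 12.5 and 12.9 RPKM with sh-*Etv5*. These groups overlapped, through sh-*Etv5* replicate 1, and *Scd1* was not called (log2 fold change 0.13, 95% interval -0.01 to 0.27, adjusted p = 0.0824). Without that library, the log2 fold change was 0.20 and the adjusted p 0.0111. The ratio of *Scd2* to *Scd1* within a library was 15.5, 14.8 and 16.5 with sh-NC and 8.82, 8.39 and 7.49 with sh-*Etv5*, so that *Scd2* stayed the more abundant isoform in every library.

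*Scd1* and *Scd2* lie with *Scd3* and *Scd4* in a cluster on chromosome 19, in which *Scd2* occupies chr19:44293674-44306864 on the plus strand and *Scd1* occupies chr19:44394455-44407879 on the minus strand. *Scd3* had a mean of 6.38 ± 0.135 RPKM with sh-NC and 3.66 ± 0.141 RPKM with sh-*Etv5* (log2 fold change -0.66, adjusted p = 1.43e-06). *Scd4* had 3.60 ± 0.0323 and 1.92 ± 0.278 RPKM (log2 fold change -0.66, adjusted p = 1.91e-05). Thus *Scd2*, *Scd3* and *Scd4* fell and *Scd1* did not pass the test. The 4 paralogs share some 50-base stretches, amounting to 3.97% of those of *Scd2* and 4.56% of those of *Scd1*, and part of the reads of the low paralogs can belong to *Scd2*.

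*Fads1* and *Fads2*, the desaturases of polyunsaturated fatty acids that lead to arachidonate, are neighbours on chromosome 19, at chr19:10182888-10196877 (plus strand) and chr19:10062765-10101746 (minus strand), with 81.1 kb between their starts. *Fads2* had 98.9, 91.6 and 97.5 RPKM with sh-NC against 51.6, 52.0 and 44.8 RPKM with sh-*Etv5*, and fell by 48.5% (log2 fold change -0.94, SE 0.0563, adjusted p = 5.15e-08). *Fads1* had 61.1, 61.6 and 62.8 RPKM with sh-NC against 42.0, 41.3 and 40.4 RPKM with sh-*Etv5*, and fell by 33.3% (log2 fold change -0.57, SE 0.0347, adjusted p = 5.86e-08). Neither gene overlapped between the groups. *Fads3*, the third gene of this cluster, was no higher than 0.34 RPKM in any library.

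**Figure D2:**
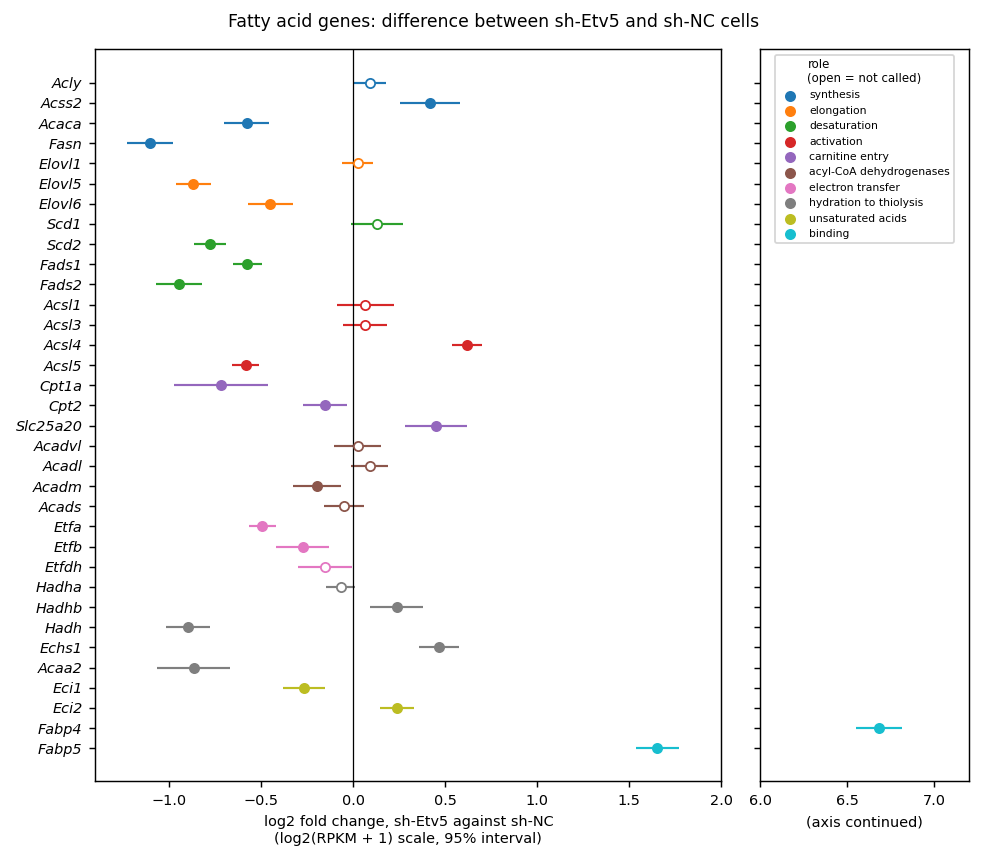
Difference between sh-*Etv5* and sh-NC cells for the 34 members tested, as log2 fold change of RPKM + 1 with its 95% interval from limma (3 libraries per group). Filled points were called and open points were not, colours give the role, and the right panel continues the axis for *Fabp4*. *Fasn* lies lowest at -1.10, and the 3 highest points are *Acsl4* at 0.62, *Fabp5* at 1.65 and *Fabp4* at 6.68.

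Promoter sequences were examined for motifs of factors known to act on lipogenic genes and for the ETS core. Of the 36 members, 29 were searched in RefSeq promoters of GRCm38.p6, with 31 windows that run from 250 bases before to 50 bases after a gene start. No window was used for *Fabp4*, *Fabp5*, *Scd1*, *Scd2*, *Fads1*, *Decr1* and *Acaa2*, so the motif counts leave out these genes, some of which changed strongly. Searched on both strands, the CCAAT box bound by NF-Y was found in 15 of the 31 windows (48.39%), against 37.41% of all 32851 windows. The sterol regulatory element TCACNCCAC was found in 1 window (3.23% of the 31 windows, against 1.24% of all). This is the window of *Acsl1* at chr8:46490716-46491015, which lies inside the gene as annotated by GENCODE. The window at the GENCODE start of *Acsl1* did not hold the element. Some other windows, such as that of *Acaca*, also lie inside the GENCODE gene. The ETS core CCGGAAG was found in 3 windows (9.68%, against 8.86%), those of *Acss2*, *Cpt2* and *Slc25a20*. These motifs do not overlap each other in the stretches printed here, apart from a pair of CCAAT boxes of *Fasn*. A match describes letters in a window and is no measure of binding.

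The stretches that follow hold these letters in *Fasn* and *Elovl5*, chosen from the lipogenic genes that fell most and hold a CCAAT box, and in the 3 members with an ETS core. Each reads 5′ to 3′ on the strand of the gene, and ends before the earlier of the RefSeq and GENCODE gene starts, and capitals mark CCAAT or CCGGAAG in either orientation. They are *Fasn* at chr11:120824548-120824797 (minus strand), *Elovl5* at chr9:77917115-77917363 (plus), *Acss2* at chr2:155517793-155517947 (plus), *Cpt2* at chr4:107923611-107923839 (minus) and *Slc25a20* at chr9:108661886-108662087 (plus).
Fasn: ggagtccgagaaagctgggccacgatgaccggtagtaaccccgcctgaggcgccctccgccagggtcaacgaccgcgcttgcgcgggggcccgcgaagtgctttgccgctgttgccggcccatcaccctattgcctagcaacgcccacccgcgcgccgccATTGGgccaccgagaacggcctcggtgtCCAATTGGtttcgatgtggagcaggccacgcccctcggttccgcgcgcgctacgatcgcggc
Elovl5: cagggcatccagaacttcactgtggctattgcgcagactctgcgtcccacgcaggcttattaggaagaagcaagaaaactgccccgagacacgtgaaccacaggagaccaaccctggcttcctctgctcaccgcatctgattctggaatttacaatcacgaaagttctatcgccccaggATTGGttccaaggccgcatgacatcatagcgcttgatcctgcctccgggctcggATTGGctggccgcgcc
Acss2: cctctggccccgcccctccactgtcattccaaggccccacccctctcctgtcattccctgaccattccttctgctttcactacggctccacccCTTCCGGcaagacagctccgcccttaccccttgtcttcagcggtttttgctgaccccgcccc
Cpt2: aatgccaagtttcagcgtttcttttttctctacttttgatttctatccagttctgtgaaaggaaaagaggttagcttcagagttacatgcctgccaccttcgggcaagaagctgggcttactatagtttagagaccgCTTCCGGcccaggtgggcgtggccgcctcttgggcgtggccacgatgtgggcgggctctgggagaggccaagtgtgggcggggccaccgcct
Slc25a20: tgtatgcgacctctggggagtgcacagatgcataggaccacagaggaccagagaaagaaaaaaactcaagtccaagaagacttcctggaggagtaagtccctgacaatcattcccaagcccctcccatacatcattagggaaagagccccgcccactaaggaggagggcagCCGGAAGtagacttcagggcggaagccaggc

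In *Fasn*, the CCAAT boxes begin 90, 62 and 59 bases before the RefSeq start, and the last of these overlap in opposite orientations. In *Elovl5* they begin 71 and 17 bases before it. *Fads2*, which fell more than *Elovl5*, also had a window, in which none of the 3 motifs was found. The ETS core begins 157 bases before the start in *Acss2*, 79 bases before it in *Slc25a20*, and 113 and 13 bases before it in *Cpt2*, of which the nearer one lies beyond the printed stretch. *Acss2* also has a CCAAT box 73 bases before the start, beyond its printed stretch. Among members with a window, the CCAAT box was present in 7 of the 13 that fell, in 2 of the 6 that rose and in 5 of the 9 not called. The ETS core was present in 2 of the 6 that rose (*Acss2* and *Slc25a20*), in 1 of the 13 that fell (*Cpt2*) and in 0 of the 9 not called. The fall of *Cpt2* was small (log2 fold change -0.15) and lost its call under 2 alternatives. So few windows give no direction for this motif.

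Activation, the joining of fatty acids to coenzyme A by long-chain acyl-CoA synthetases, showed opposite changes of its members. *Acsl4*, which prefers arachidonate and related polyunsaturated fatty acids (chrX:142317993-142390535, minus strand), had 25.4, 25.7 and 25.9 RPKM with sh-NC against 39.2, 41.0 and 39.6 RPKM with sh-*Etv5*. It rose by 55.7% (log2 fold change 0.62, SE 0.0373, adjusted p = 5.67e-08). *Acsl5*, a synthetase found at mitochondria and the endoplasmic reticulum (chr19:55251938-55297720, plus strand), had 81.3, 82.1 and 82.0 RPKM with sh-NC against 53.6, 54.2 and 54.9 RPKM with sh-*Etv5*. It fell by 33.7% (log2 fold change -0.58, SE 0.0321, adjusted p = 2.63e-08), and its exons overlap those of the antisense gene *Zdhhc6*.

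The ratio of *Acsl5* to *Acsl4* within a library was 3.19 ± 0.0193 with sh-NC and 1.36 ± 0.0328 with sh-*Etv5*. *Acsl1* had 7.97, 7.84 and 7.57 RPKM with sh-NC against 7.28, 8.83 and 8.59 RPKM with sh-*Etv5* (log2 fold change 0.07, 95% interval -0.09 to 0.22, adjusted p = 0.397). *Acsl3* had 10.4, 10.8 and 10.2 RPKM with sh-NC against 11.3, 10.3 and 11.4 RPKM with sh-*Etv5* (log2 fold change 0.07, 95% interval -0.06 to 0.19, adjusted p = 0.294). The groups of both genes overlapped and neither was called. The 4 synthetases together summed to 126 ± 0.715 RPKM with sh-NC and 113 ± 1.78 RPKM with sh-*Etv5*.

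**Figure D3:**
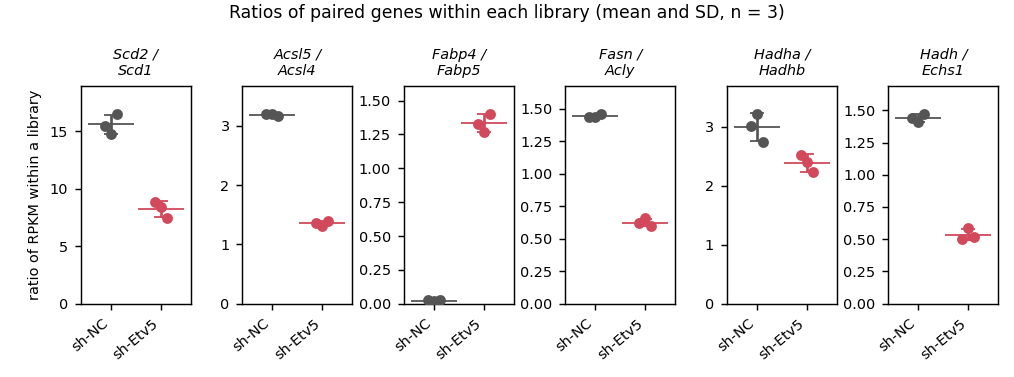
Ratio of the RPKM of paired genes within each library (points), with the mean and SD of the 3 libraries of each group. All axes start at 0. The pairs were chosen after the values were seen, so the lack of overlap in all 6 is no result of its own. The mean ratio of *Fabp4* to *Fabp5* went from 0.0233 to 1.33.

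The oxidation genes changed less and in both directions. Of the 17 tested, 8 fell (47.1%, against 41.0% of all genes), 4 rose (23.5%, against 33.3%) and 5 were not called, and the median log2 fold change was -0.15. The share called, 70.6%, was near the 74.3% of all genes. Their summed RPKM was 417, 399.6 and 413 with sh-NC and 354, 353 and 376 with sh-*Etv5*, a difference of -11.9%. With an absolute log2 fold change of at least 0.5, 3 fell (*Hadh*, *Acaa2* and *Cpt1a*), which is 17.6% of the 17, against 15.0% of all genes. The highest log2 fold change of an oxidation member was 0.47.

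Mitochondrial entry uses the carnitine shuttle. *Cpt1a*, the carnitine palmitoyltransferase of the outer membrane and the regulated step of oxidation, had 6.27, 5.72 and 5.24 RPKM with sh-NC against 3.89, 3.13 and 2.40 RPKM with sh-*Etv5*. It fell by 45.3% (log2 fold change -0.72, SE 0.116, adjusted p = 0.000191), and its SE was the widest among the members. *Slc25a20*, the carnitine-acylcarnitine carrier of the inner membrane, had 5.11, 6.01 and 6.39 RPKM with sh-NC against 7.97, 8.91 and 8.12 RPKM with sh-*Etv5*, and rose by 42.7% (log2 fold change 0.45, SE 0.0766, adjusted p = 0.000265).

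*Cpt2*, which returns the acyl group to coenzyme A in the matrix, had 9.32, 9.07 and 8.52 RPKM with sh-NC against 7.98, 7.93 and 7.99 RPKM with sh-*Etv5*. Its fall by 11.2% (log2 fold change -0.15, adjusted p = 0.0226) was small and no longer called without sh-NC replicate 1 (adjusted p = 0.0884) or without sh-NC replicate 2 (adjusted p = 0.0686). Thus the genes of this shuttle moved apart, with its transferases lower and its carrier higher.

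The acyl-CoA dehydrogenases, which open each round of oxidation for chains of different lengths, changed little, and their summed RPKM was 96.0 ± 1.69 with sh-NC and 96.1 ± 5.44 with sh-*Etv5*. *Acadm*, the medium-chain enzyme, had 18.6, 18.3 and 18.5 RPKM with sh-NC against 15.7, 14.7 and 17.6 RPKM with sh-*Etv5*, and fell by 13.3% (log2 fold change -0.20, adjusted p = 0.0107). That call was lost without the filter on low values (adjusted p = 0.0977).

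The other dehydrogenases were not called. *Acadl*, the long-chain enzyme, had 42.5, 41.4 and 42.4 RPKM with sh-NC against 43.8, 43.0 and 48.0 RPKM with sh-*Etv5*, without overlap (log2 fold change 0.09, 95% interval -0.01 to 0.19, adjusted p = 0.0931). Quantile normalization brought *Acadl* to an adjusted p of 0.00883, as a rise, and leaving out sh-*Etv5* replicate 2 brought it to 0.0435. The very long-chain enzyme *Acadvl*, which shares 26.93% of its 50-base stretches with the antisense gene *Dvl2*, overlapped between groups (log2 fold change 0.02, 95% interval -0.10 to 0.15), and so did the short-chain enzyme *Acads* (log2 fold change -0.05, 95% interval -0.16 to 0.06).

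Electrons from these enzymes pass to the electron transfer flavoprotein, whose subunits are encoded by *Etfa* and *Etfb*. *Etfa* had 86.0, 84.6 and 86.7 RPKM with sh-NC against 61.3, 59.2 and 61.5 RPKM with sh-*Etv5*, and fell by 29.2% (log2 fold change -0.49, SE 0.0334, adjusted p = 1.52e-07). *Etfb* had 53.9, 46.7 and 48.7 RPKM with sh-NC against 38.3, 39.6 and 45.0 RPKM with sh-*Etv5*, and fell by 17.6% (log2 fold change -0.27, adjusted p = 0.00281). *Etfb* was not called without the filter on low values (adjusted p = 0.0802), and 44.81% of its 50-base stretches also occur in overlapping annotated genes, mainly *Gm45233*.

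*Etfdh*, which hands the electrons to ubiquinone, had 16.0, 14.1 and 15.6 RPKM with sh-NC against 13.7, 12.5 and 14.7 RPKM with sh-*Etv5*. It was not called (log2 fold change -0.15, 95% interval -0.30 to -0.00, adjusted p = 0.0584), and lay close enough to the threshold that 6 of 15 alternatives called it lower, with adjusted p-values from 0.00954 to 0.0493. Both subunits of the flavoprotein were thus lower.

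The enzymes that follow dehydrogenation split more widely. *Hadh*, the short-chain hydroxyacyl-CoA dehydrogenase (chr3:131233419-131272101, minus strand), had 26.2, 26.1 and 28.1 RPKM with sh-NC against 12.9, 14.6 and 14.4 RPKM with sh-*Etv5*. It fell by 47.9%, the largest log2 fall of the oxidation members (log2 fold change -0.90, SE 0.0544, adjusted p = 6.06e-08). *Acaa2*, the mitochondrial thiolase, had 16.4, 14.8 and 13.7 RPKM with sh-NC against 6.59, 8.64 and 8.15 RPKM with sh-*Etv5*, and fell by 48.0% (log2 fold change -0.87, SE 0.0893, adjusted p = 4.98e-06).

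*Echs1*, the short-chain enoyl-CoA hydratase that acts just before *Hadh*, went the other way. It had 18.2, 18.6 and 19.1 RPKM with sh-NC against 25.7, 24.9 and 27.8 RPKM with sh-*Etv5*, and rose by 40.5% (log2 fold change 0.47, SE 0.0488, adjusted p = 5.46e-06). Its exons overlap those of the antisense gene *Paox*. The ratio of *Hadh* to *Echs1* within a library was 1.44, 1.41 and 1.47 with sh-NC and 0.501, 0.585 and 0.518 with sh-*Etv5*, so that *Hadh* was above *Echs1* in every sh-NC library and below it in every sh-*Etv5* library.

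*Hadha* and *Hadhb* encode the subunits of the mitochondrial trifunctional protein, which handles long chains, and they start 86 bases apart on opposite strands (*Hadha* at chr5:30118304-30155162, minus, and *Hadhb* at chr5:30155248-30184593, plus). *Hadha* had 35.4, 34.7 and 35.2 RPKM with sh-NC against 33.5, 33.7 and 33.1 RPKM with sh-*Etv5*. The groups did not overlap, yet *Hadha* was not called (log2 fold change -0.07, 95% interval -0.15 to 0.01, adjusted p = 0.105). It was called lower when the libraries were rescaled to a common RPKM sum (adjusted p = 0.00994) and without the filter on low values (adjusted p = 0.0115).

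*Hadhb* had 11.8, 10.8 and 12.9 RPKM with sh-NC against 13.3, 14.0 and 14.9 RPKM with sh-*Etv5*, and rose by 19.2% (log2 fold change 0.24, adjusted p = 0.00651). Without the filter on low values its adjusted p was 0.0788, and 19.74% of its 50-base stretches also occur in other annotated genes, such as *Gm13910*. The ratio of *Hadha* to *Hadhb* was 3.01, 3.21 and 2.74 with sh-NC and 2.52, 2.40 and 2.23 with sh-*Etv5*.

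The isomerases that move double bonds into place for oxidation of unsaturated fatty acids also differed in sign. *Eci1* had 20.0, 18.3 and 18.8 RPKM with sh-NC against 15.9, 14.8 and 16.4 RPKM with sh-*Etv5*, and fell (log2 fold change -0.27, adjusted p = 0.000714). *Eci2*, which is also found in peroxisomes, had 16.5, 15.8 and 16.5 RPKM with sh-NC against 19.2, 19.2 and 19.7 RPKM with sh-*Etv5*, and rose (log2 fold change 0.24, adjusted p = 0.000364), with 11.11% of its 50-base stretches shared, mainly with *Eci3*. *Decr1*, the mitochondrial dienoyl-CoA reductase, is a gene that most tissues use, and its listing at 0 in all 6 libraries can be a failed estimate, so nothing can be read from it.

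**Figure D4:**
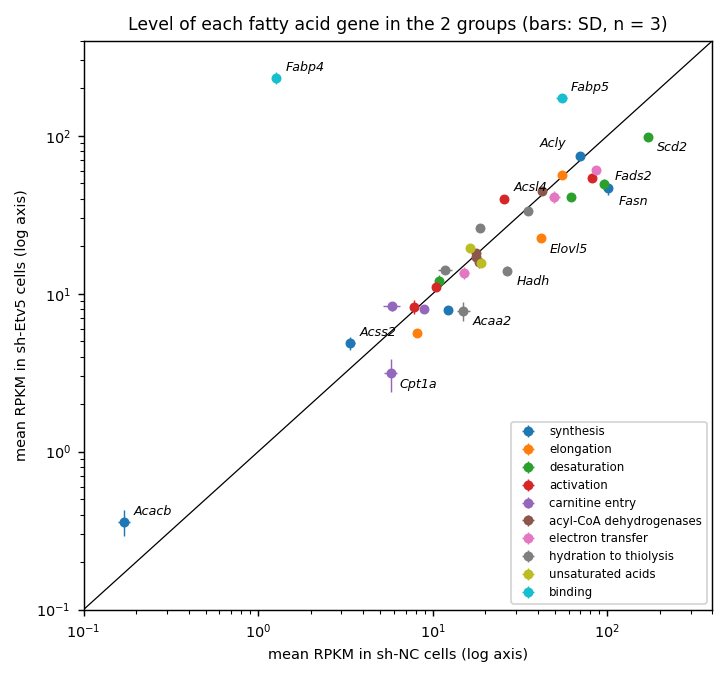
Mean RPKM of each gene in sh-NC cells (x axis) and sh-*Etv5* cells (y axis), both on log axes, with SD bars over 3 libraries and a diagonal of equal levels. Colours give the role, and *Decr1*, at 0, is not drawn. *Fabp4* and *Fabp5* lie furthest above the diagonal, and *Fasn*, *Fads2*, *Hadh* and *Acaa2* lie furthest below it among the labelled genes above 10 RPKM in sh-NC cells.

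The fatty acid binding proteins, which carry fatty acids through the cytosol, rose far more than any other member. *Fabp4*, best known from adipocytes and macrophages (chr3:10204088-10208576, minus strand), had 1.31, 1.19 and 1.31 RPKM with sh-NC against 223, 219 and 256 RPKM with sh-*Etv5*. Its mean went from 1.27 ± 0.0667 to 233 ± 20.4 RPKM, a ratio of 183 (log2 fold change 6.68, SE 0.0598, adjusted p = 1.69e-14). The log2 fold change is that of RPKM + 1 and understates the change of so low a gene. *Fabp4* ranked 6 by increase among the 10738 genes tested. None of its 50-base stretches occurs in another annotated gene.

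*Fabp5*, the epidermal-type binding protein that macrophages also make (chr3:10012548-10016607, plus strand), had 51.6, 59.4 and 53.8 RPKM with sh-NC against 168, 172 and 183 RPKM with sh-*Etv5*. The mean went from 54.9 ± 4.06 to 174 ± 7.77 RPKM, a ratio of 3.18 (log2 fold change 1.65, SE 0.0524, adjusted p = 3.49e-10). The ratio of *Fabp4* to *Fabp5* within a library was 0.0254, 0.0201 and 0.0243 with sh-NC and 1.33, 1.27 and 1.40 with sh-*Etv5*. *Fabp5* was thus the main isoform in sh-NC cells, and *Fabp4* was above it in every sh-*Etv5* library.

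The starts of *Fabp5* and *Fabp4* lie 196.0 kb apart on chromosome 3, with other genes of the family close by. Of these, *Pmp2* and *Fabp9* did not exceed 0.0301 RPKM in any library, and *Fabp12* was listed at 0. *Gm9833*, which lies between *Fabp5* and *Fabp4*, had 21.1, 20.5 and 22.7 RPKM with sh-NC against 22.2, 22.5 and 22.0 RPKM with sh-*Etv5*. Since *Fabp4* also marks adipocytes, 6 other adipocyte markers were examined (*Adipoq*, *Plin1*, *Lep*, *Cidec*, *Cfd* and *Retn*). None reached the filter, the highest value of any of them was 0.181 RPKM, and their sum was 0 to 0.0668 RPKM with sh-NC and 0.0833 to 0.208 RPKM with sh-*Etv5*. The adipocyte markers were therefore near 0 in both groups. A sum of 6 fibroblast markers was 0.0112 to 0.0238 RPKM with sh-NC and 0.764 to 1.10 RPKM with sh-*Etv5*, with *Lum* the highest, at up to 0.931 RPKM, and its part in the results was not tested.

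The order of levels, given per length as RPKM, changed with these shifts. In sh-NC cells the highest members were *Scd2* at 170.3, *Fasn* at 101, *Fads2* at 96.0, *Etfa* at 85.8 and *Acsl5* at 81.8 RPKM, of which *Fasn* and *Fads2* overlapped between libraries. In sh-*Etv5* cells they were *Fabp4* at 233, *Fabp5* at 174, *Scd2* at 99.0, *Acly* at 74.2 and *Etfa* at 60.7 RPKM, with no overlap between neighbours in this order. All members together summed to 1222 ± 15.2 RPKM with sh-NC and 1302 ± 27.2 RPKM with sh-*Etv5*, a difference of 6.54%. Of this, *Fabp4* and *Fabp5* together went from 56.2 to 407 RPKM.

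A further 5 lists of genes of the same pathways, 129 genes in all, were examined beside the members. Of the 99 tested, 51 rose (51.5%, against 33.3% of all genes), 31 fell (31.3%, against 41.0%) and 17 were not called. That is 82.8% called against 74.3% of all genes, with a median log2 fold change of 0.17. *Cd36*, *Hacd1* and *Cpt1b* were below 1 RPKM in every sh-NC library and passed the filter only through the sh-*Etv5* libraries, and *Abcd2* and *Slc27a3* passed it only through the sh-NC libraries, so these 5 had to differ and their part of the counts is no result. With these genes kept in, rises outnumbered falls over the 5 lists together, whereas falls outnumbered rises among the members. The list of control genes went the other way, with 10 that rose and 12 that fell. In each list, genes among the 3 with the largest absolute log2 fold change are described.

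In the further list of synthesis, elongation and desaturation, 8 of 14 tested genes rose (57.1%, against 33.3% of all genes) and 4 fell (28.6%, against 41.0%), with a median log2 fold change of 0.15. *Degs1*, the dihydroceramide desaturase of sphingolipid synthesis, had 42.3, 41.2 and 39.2 RPKM with sh-NC against 159, 157 and 172 RPKM with sh-*Etv5* (log2 fold change 1.97, adjusted p = 1.97e-11). *Hacd1*, a dehydratase of the elongation cycle, went from 0.223 ± 0.073 to 3.34 ± 0.47 RPKM (log2 fold change 1.82), and passed the filter only through the group where it is high. *Me1*, the cytosolic malic enzyme that makes NADPH for lipogenesis, went from 5.82 ± 0.155 to 11.2 ± 0.424 RPKM (log2 fold change 0.84).

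In the list of uptake, activation, binding and thioesterases, 12 of 17 tested genes rose (70.6%, against 33.3% of all genes) and 3 fell (17.6%, against 41.0%), with a median log2 fold change of 0.44. *Cd36*, a fatty acid and lipoprotein receptor, went from 0.359 ± 0.0464 to 16.6 ± 0.316 RPKM (log2 fold change 3.70), and it too passed the filter only through the sh-*Etv5* libraries. *Lpl*, the lipase that frees fatty acids from lipoproteins, had 171, 175 and 178 RPKM with sh-NC against 41.5, 44.2 and 42.6 RPKM with sh-*Etv5* (log2 fold change -2.01, adjusted p = 3.12e-12). *Them4*, an acyl-CoA thioesterase, went from 2.34 ± 0.215 to 9.00 ± 1.29 RPKM (log2 fold change 1.58).

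In the further list of mitochondrial oxidation, 9 of 17 tested genes rose (52.9%, against 33.3% of all genes) and 4 fell (23.5%, against 41.0%), and the share called, 76.5%, was near the 74.3% of all genes. *Acadsb*, the dehydrogenase of short branched chains, went from 6.71 ± 0.365 to 15.3 ± 1.02 RPKM (log2 fold change 1.08). *Acat1*, the mitochondrial acetoacetyl-CoA thiolase, fell from 51.1 ± 1.01 to 32.1 ± 2.02 RPKM (log2 fold change -0.66).

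In the list of peroxisomal oxidation, 12 of 27 tested rose (44.4%, against 33.3% of all genes), 8 fell (29.6%, against 41.0%) and 7 were not called, at a median log2 fold change of 0.15. The share called, 74.1%, was near the 74.3% of all genes. The thiolase gene *Acaa1a* had 77.3, 68.9 and 69.8 RPKM with sh-NC against 29.2, 27.5 and 27.5 RPKM with sh-*Etv5* (log2 fold change -1.33, adjusted p = 1.10e-09). Its paralog *Acaa1b* went from 8.53 ± 0.60 to 3.54 ± 0.556 RPKM (log2 fold change -1.08), and since these paralogs are alike in sequence, the split of reads between them is uncertain. *Abcd4*, a relative of the peroxisomal fatty acid transporters that is itself known for lysosomal cobalamin transport, went from 5.77 ± 0.0999 to 15.1 ± 1.22 RPKM (log2 fold change 1.25).

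Of the genes that control these pathways, 10 of 24 tested rose (41.7%, against 33.3% of all genes) and 12 fell (50%, against 41.0%). *Ppard*, a nuclear receptor activated by fatty acids, had 7.31, 7.64 and 8.10 RPKM with sh-NC against 20.5, 21.7 and 17.4 RPKM with sh-*Etv5* (log2 fold change 1.26, adjusted p = 5.16e-08). *Esrra*, a nuclear receptor that activates genes of mitochondrial metabolism, went from 19.7 ± 0.333 to 36.8 ± 0.565 RPKM (log2 fold change 0.87). On the sterol-regulated side, *Srebf2* fell from 69.8 ± 2.81 to 45.0 ± 2.52 RPKM (log2 fold change -0.62) and *Srebf1*, whose protein activates lipogenic genes, fell from 39.2 ± 0.377 to 28.9 ± 0.816 RPKM (log2 fold change -0.42, adjusted p = 1.46e-06). *Scap* and *Insig1*, which hold or release these factors, also fell (log2 fold changes -0.55 and -0.49), whereas *Insig2*, the paralog of *Insig1*, rose from 4.92 ± 0.346 to 6.40 ± 0.231 RPKM (log2 fold change 0.32, adjusted p = 0.000794). Levels of messenger RNA do not give the activity of these factors.

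**Figure D5:**
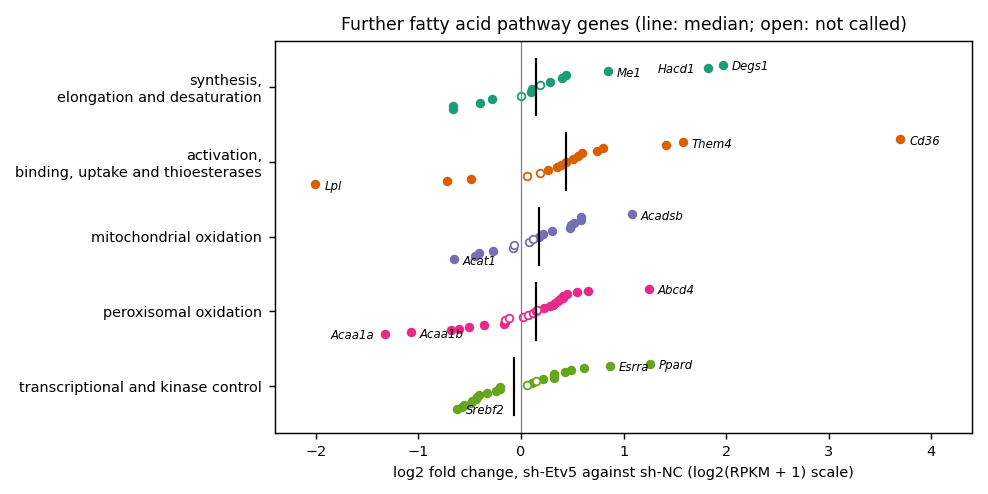
Log2 fold change of RPKM + 1 between sh-*Etv5* and sh-NC cells for the 99 tested genes of the 5 further lists, 1 row per list. Filled points were called, open points were not, and the vertical line in each row is the list's median. Genes among the 3 largest changes of each list are named, from *Lpl* at -2.01 to *Cd36* at 3.70.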

How the data were processed

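Messenger RNA of 3 sh-NC and 3 sh-*Etv5* libraries was compared, grouped by the sample labels. The authors deposited RPKM values, 1 per gene symbol and library, without log transformation and with build mm10 named in the submitters' processing notes. The aligner and annotation are not given in the sources used here. RPKM is already scaled by gene length and library total, so a few abundant genes that change can shift the others. Few low values shared a step between libraries, which left whole reads unrecovered and the depth unknown. All 6 columns were mapped, and 0 columns were left without a sample.

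The 10738 genes that reached 1 RPKM in 3 or more libraries were fitted as log2(RPKM + 1), using limma 3.58.1 (R 4.3.3) with a trended eBayes, two-sided and with no covariate. Benjamini-Hochberg adjusted p-values over all of these genes were called below 0.05, and the steps were tested on simulated data. Every p in the text is such an adjusted p, and n is 3 libraries per group throughout. Positions were taken from GENCODE M21 on GRCm38 (24255 symbols matched), shared 50-base stretches were counted between its transcripts, and promoters came from RefSeq GRCm38.p6. Tables were handled with Python 3.11.15.

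The members and lists were chosen with earlier results of these data known. All members, and the 3 largest changes of each further list, were named by rule, apart from an item that is not reported here. The within-library ratios, *Scd3*, *Scd4*, *Srebf1*, *Scap*, *Insig1*, *Insig2*, the genes named for how they passed the filter, the neighbouring genes and the printed promoters were chosen after the values were seen. Alternatives covered pseudocounts of 0.1 and 0.01, filters, scalings, eBayes without trend, the replicate block and each library left out. One scaling was added after seeing the data.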

Additional observations from a re-analysis of the deposited data

How the results depend on the processing

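Over 15 alternatives, of which 14 were planned, no member, further gene named by rule or *Etv5* changed sign while called. Of the 24 called members, 20 stayed called under every alternative that tested them, and *Acadm*, *Etfb*, *Hadhb* and *Cpt2* lost their call under some. Among these 20, *Acss2* and *Cpt1a* were not tested with a mean RPKM of at least 5. Of the 10 members not called, *Acadl*, *Acly*, *Etfdh*, *Hadha* and *Scd1* were called under some alternatives and the other 5 under none. The count of synthesis, elongation and desaturation members called higher was 1, namely *Acss2*. It became 2 without the filter on low values, where *Acacb* was also tested and called higher (adjusted p = 0.0154). With a mean RPKM of at least 5 it became 0, since *Acss2* was then not tested. It was 2 after quantile normalization, and 1 to 2 with a library left out (2 without sh-*Etv5* replicate 1 and 2 without sh-*Etv5* replicate 3). The median log2 fold change of these members was -0.5738, and moved to -0.5111 without the filter, -0.634 with libraries rescaled to a common RPKM sum and -0.5294 after quantile normalization. That of the activation members was 0.0665, and moved to 0.0109 with the common sum and to between 0.0394 and 0.0954 with a library left out. The moves under changed filters came with *Acacb* entering or *Acss2* leaving the genes tested, and the cause of the other moves was not tested. The scaling to a common sum, which lowered the median of all genes by a shift of -0.0539, called 18 members lower, and quantile normalization called 10 higher.

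Same-numbered libraries had correlations of their deviations of 0.0739, -0.071 and -0.0352, and those of different numbers had -0.0711 to 0.105. No deviation shared by replicate number was thus seen. With 3 libraries per group, these values cannot tell whether same-numbered libraries were handled together. Under the replicate block, 8 members were higher and 17 lower, and *Etfdh* was the member gained (adjusted p = 0.0222). Since the depth is unknown, no counting error could be given for low genes such as *Acacb*.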
